A study of Mus musculus with 10 samples.

Results

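Interferon-stimulated genes are the genes that cells switch on when interferon binds its receptor. A set of 44 such mouse genes was followed in bulk RNA-seq of splenic germinal center B cells. The members were taken as a list of symbols, each matched through its gene identifier to a row of the count table, and all 44 of 44 were found among 55421 genes. They were sorted by known role into 4 RNA or DNA sensors, 4 transcription factors, 22 antiviral effectors, 7 modifiers and ligases, and 7 GTPases. The 10 libraries came from C57BL/6 mice, 8 to 10 weeks of age per the labels, whose cells were enriched with beads for the lectin PNA on day 10 after immunization. They form 4 groups: HOMO CC (Pbrm1-/-, n = 2), WT CC (Pbrm1+/+, n = 3), HOMO CB (Pbrm1-/-, n = 2) and WT CB (Pbrm1+/+, n = 3). Immunization and strain were shared by all groups, and no group was treated with interferon or infected per the labels. Pbrm1 encodes a subunit of PBAF, a chromatin remodelling complex of the SWI/SNF class. The labels state neither the kind of allele nor a Cre driver, and they do not spell out CB and CC. The names of all 10 count columns begin with Pbrm1AID, HOMO and WT alike, and the labels do not explain the AID in them. Whether replicates came from separate animals is also not stated, so the p-values speak of the spread among these libraries only, and that spread may be technical.

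Type I and type III interferons act through receptors that assemble the complex ISGF3, which holds STAT2 and IRF9 and binds the interferon-stimulated response element (ISRE) near its targets. Interferon gamma acts through a different receptor and through the gamma-activated site (GAS), and IRF1 is an early target of that branch. The products sense viral nucleic acid, cut or edit RNA, block entry and translation, attach the ubiquitin-like protein ISG15, or attack the vacuoles of intracellular microbes. B cells answer both kinds of interferon. Type I interferon, largely from plasmacytoid dendritic cells, and interferon gamma from T cells are known to shape germinal center responses.

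RefSeq's promoter table (build GRCm38.p6) held 34 of the 44 members, with 43 promoters. The letters GAAANNGAAA, searched on both strands as a simple ISRE, were present in the 250 bases before the start of 15 of those 34 members (44.1%), against 936 of 27025 genes in the table (3.46%). The letters TTCNNNGAA, searched likewise as a GAS, were present in 9 of 34 members (26.5%), against 8.13% of all genes. The ISRE letters were found for Ifit1, Ifit3, Isg15, Rsad2, Oas1a, Oas3, Bst2, Gbp2, Gbp3, Gbp7, Igtp, Irgm1, Irgm2, Stat2 and Trim30a, and Isg15 had 3 overlapping matches. They were not found in these windows for Samd9l, Adar, Trim25, Dtx3l, Xaf1 or Irf1. The following 5 windows are shown because these members carried the differences between fractions described further on, or, for Samd9l, the highest level of all members. Each is written 5′ to 3′ on the strand of the gene and ends at the base before the RefSeq start, and capitals mark the ISRE letters, read on the opposite strand in 4 of these windows.
Ifit3 (chr19:34583279-34583528, plus strand): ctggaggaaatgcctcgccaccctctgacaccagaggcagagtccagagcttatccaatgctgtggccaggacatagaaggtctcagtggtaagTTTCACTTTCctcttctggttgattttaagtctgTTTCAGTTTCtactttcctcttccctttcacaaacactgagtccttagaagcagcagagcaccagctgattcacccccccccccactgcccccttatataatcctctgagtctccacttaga
Rsad2 (chr12:26456453-26456702, minus strand): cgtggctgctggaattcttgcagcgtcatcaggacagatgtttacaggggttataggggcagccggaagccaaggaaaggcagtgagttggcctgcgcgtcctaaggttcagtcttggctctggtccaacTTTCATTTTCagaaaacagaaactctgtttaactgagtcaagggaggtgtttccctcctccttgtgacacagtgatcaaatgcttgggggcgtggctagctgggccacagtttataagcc
Gbp7 (chr3:142530086-142530335, plus strand): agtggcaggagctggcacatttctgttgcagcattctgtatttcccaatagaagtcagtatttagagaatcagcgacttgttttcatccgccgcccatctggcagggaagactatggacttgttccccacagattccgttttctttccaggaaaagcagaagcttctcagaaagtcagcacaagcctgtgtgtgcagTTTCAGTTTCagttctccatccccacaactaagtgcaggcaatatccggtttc
Gbp3 (chr3:142559794-142560043, plus strand): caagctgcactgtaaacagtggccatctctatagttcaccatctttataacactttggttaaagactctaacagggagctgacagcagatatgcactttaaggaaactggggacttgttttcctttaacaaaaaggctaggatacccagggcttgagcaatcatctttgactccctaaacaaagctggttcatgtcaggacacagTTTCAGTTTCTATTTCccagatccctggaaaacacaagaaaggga
Samd9l (chr6:3399572-3399821, minus strand): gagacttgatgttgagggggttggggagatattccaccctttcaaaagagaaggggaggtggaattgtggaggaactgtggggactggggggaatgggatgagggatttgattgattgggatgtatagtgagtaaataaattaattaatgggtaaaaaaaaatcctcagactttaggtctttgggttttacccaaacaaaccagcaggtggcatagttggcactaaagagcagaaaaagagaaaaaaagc
Ifit3 had 2 separate matches, Rsad2 and Gbp7 had 1 each, and the 2 matches of Gbp3 overlap. A match of letters is a description and not a test of binding.

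The libraries held 9954006 to 67625110 counts. Pbrm1 itself had 151.8 and 150.4 TMM-scaled CPM (counts scaled to a common library size) in HOMO CC, against 238.8 to 250.3 CPM in WT CC, and 177.8 and 163.9 CPM in HOMO CB, against 308.7 to 319 CPM in WT CB. The B cell markers Ms4a1 and Pax5 had 812.4 to 1736 CPM and 923.5 to 1165 CPM over the 10 libraries, and the germinal center markers Bcl6 and S1pr2 had 356.5 to 581.8 CPM and 269 to 414.9 CPM. Libraries differed in their content of other cells. All 13 macrophage markers were detected, and they summed to 27.5 and 34.5 CPM in HOMO CC libraries 2 and 3, against 1078, 273.1 and 60.1 CPM in libraries 1, 2 and 3 of WT CC. The sums were 14.0 and 14.6 CPM in HOMO CB and 26.5, 15.7 and 21.4 CPM in WT CB. A list of 4 genes of red blood cells summed to 41.6, 8.70 and 0.562 CPM in libraries 1, 2 and 3 of WT CC. The 9 neutrophil markers summed to 160 and 129.7 CPM in HOMO CB and CC library 2 and to 15.02 CPM or less elsewhere. The 7 T cell markers summed to 2.25 to 13.4 CPM. Of the 5 plasmacytoid dendritic cell markers, Siglech, Klk1, Cox6a2 and Ccr9 had at most 0.562 CPM each in any library, with Klk1 at 0 in all, while Tcf4, a transcription factor gene that B cells express as well, had 240.5 to 363.5 CPM. Libraries also followed the GC content of genes to different degrees. Over 8802 genes, the deviation of a library from the mean correlated with GC content with rho of -0.173 and -0.222 in HOMO CC, 0.431, 0.552 and 0.152 in WT CC libraries 1, 2 and 3, -0.632 and -0.605 in HOMO CB, and 0.15, 0.248 and -0.457 in WT CB libraries 1, 2 and 3. WT libraries 1 and 2 thus stood on the other side of 0 from the HOMO libraries of the same fraction, and WT CB library 3 stood nearer to the HOMO libraries.

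Levels are compared between genes per length, as TMM-scaled RPKM (CPM divided by the length in kilobases) averaged over the 10 libraries. The median of the 43 tested members was 1.63 RPKM, against 3.82 RPKM for all 16596 tested genes, and 18 members lay above that median of all genes. Of the 44 members, 5 averaged over 100 CPM, 13 lay between 10 and 100 CPM, 20 between 1 and 10 CPM and 6 under 1 CPM. The most abundant members were Samd9l (24.3 RPKM), Adar (20 RPKM), Trim25 (18 RPKM), Stat2 (17.9 RPKM), Parp14 (17.5 RPKM) and Dtx3l (17.1 RPKM). The lowest were Ifi44 (0.0153 RPKM), Iigp1 (0.107 RPKM), Ifit1 (0.13 RPKM), Rsad2 (0.15 RPKM), Gbp7 (0.18 RPKM) and Mx2 (0.213 RPKM). The list thus ran without a break from genes with many reads in every library, such as the ISGF3 subunit gene Stat2 and the RNA editing enzyme gene Adar, to genes with few reads, such as Ifit1 with 0 to 32 reads per library. Ifi44 had 17 and 4 reads in WT CC libraries 1 and 2, 2 reads in WT CB library 3 and 0 reads elsewhere, and it did not pass the filter on low counts.

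**Figure D1:**
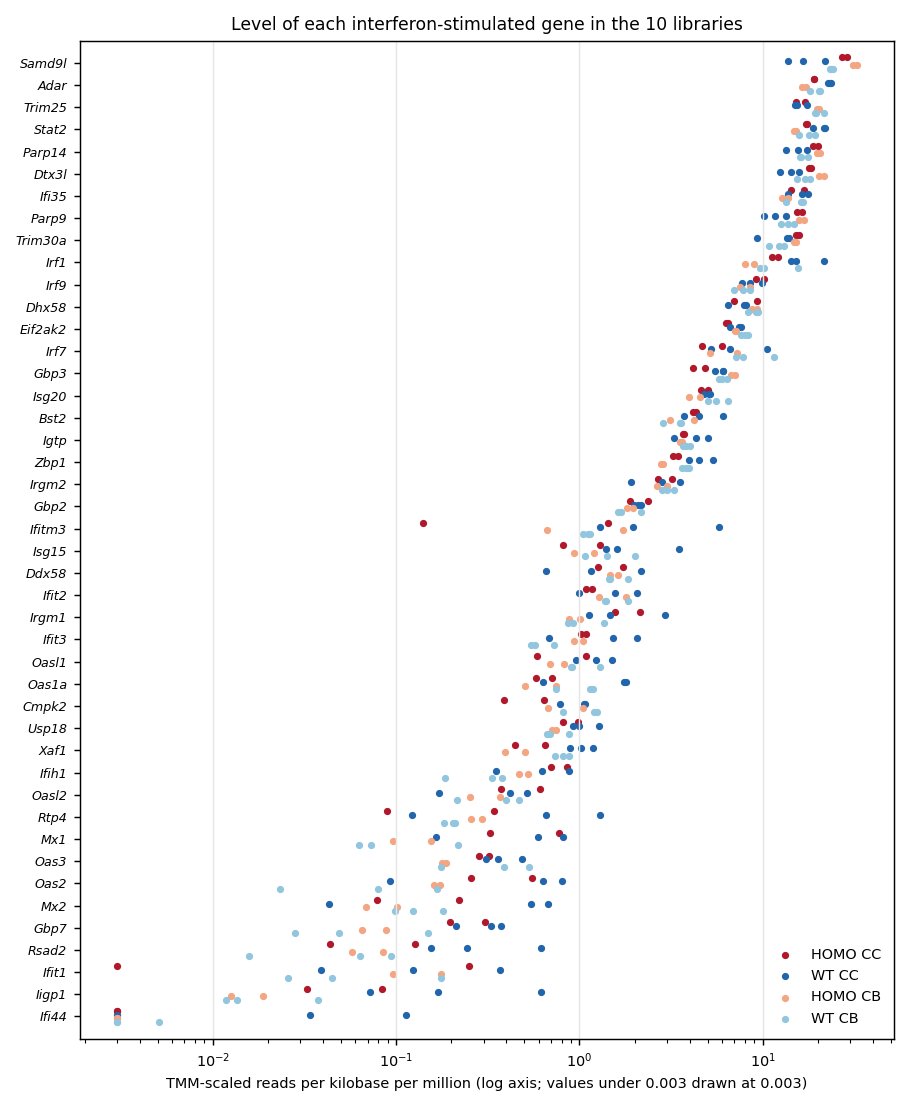
Level of all 44 members, as TMM-scaled RPKM on a log axis, with a point for each of the 10 libraries (HOMO CC, WT CC, HOMO CB and WT CB in the order of the legend). Samd9l, Adar and Trim25 averaged 24.3, 20 and 18 RPKM, while Iigp1 and Ifi44 averaged 0.107 and 0.0153 RPKM.

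Among the sensors, Dhx58, which encodes LGP2, a regulator of RIG-I-like receptors, was highest at 8.38 RPKM. It had 22.9 and 30.3 CPM in HOMO CC, against 26.7, 21.2 and 26.0 CPM in WT CC, and 28.6 and 30.4 CPM in HOMO CB, against 30.2, 30.7 and 27.1 CPM in WT CB. Zbp1, a sensor of left-handed nucleic acid, followed at 3.76 RPKM, then Ddx58, which encodes RIG-I, at 1.48 RPKM and Ifih1, which encodes MDA5, at 0.531 RPKM. The transcription factors were all well expressed. Stat2 had 17.9 RPKM, Irf1 12.6 RPKM, Irf9, the DNA-binding subunit of ISGF3, 8.47 RPKM, and Irf7, an inducer of interferon genes, 7.20 RPKM. Irf9 overlaps Rnf31 on the same strand, and Irf7 overlaps Phrf1, which had 47434 reads against 8824 of Irf7, on the opposite strand. Reads from the shared stretch cannot be told apart for genes on the same strand, nor for genes on opposite strands unless the counting used strand, which is not given in the sources used here.

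The antiviral effectors spanned the whole range. Samd9l, an interferon-induced translation repressor, and Adar were highest, followed by Ifi35 (15.1 RPKM) and Eif2ak2, which encodes the kinase PKR (7.25 RPKM). The exonuclease gene Isg20 had 5.02 RPKM and the tetherin gene Bst2 4.01 RPKM. The 2'-5' oligoadenylate synthetase genes and their relatives (Oas1a, Oas2, Oas3, Oasl1, Oasl2) lay between 0.294 and 1.00 RPKM, and the Ifit genes between 0.13 RPKM for Ifit1 and 1.45 RPKM for Ifit2. Among the modifiers and ligases, the ubiquitin ligase genes Trim25, Dtx3l and Trim30a and the ADP-ribosyltransferase genes Parp9 (14.1 RPKM) and Parp14 had 13.4 RPKM or more, while Isg15 itself had 1.53 RPKM and its protease gene Usp18 0.871 RPKM. Dtx3l and Parp9 encode partners of a protein complex, and their genes overlap on opposite strands of chromosome 16. The GTPases were led by Gbp3 (5.85 RPKM) and Igtp (3.86 RPKM), a member of the immunity-related GTPases that overlaps Irgm2 on the same strand. Near-identical relatives (Ifit3 and Ifit3b, Oas1a and Oas1g, the Trim30 and Gbp clusters) may also have shared reads, and their counts are uncertain to that extent.

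Between genotypes, no member passed in either fraction. With edgeR's quasi-likelihood test and Benjamini-Hochberg adjustment over all 16596 genes at a threshold of 0.05, 0 of 43 members were called for HOMO against WT in CB, where 0.0241% of all genes were called, and 0 of 43 in CC, where 0% were called. By DESeq2 the count was 0 in CB, where 0.826% of all genes were called higher and 0.844% lower. In CC it was 3 (6.98%), with Parp9 and Samd9l higher and Adar lower. There 2.16% of all genes were called higher and 2.75% lower. At an unadjusted p under 0.05, 8 members (18.6%) stood in CB, against 12.5% of all genes, and 14 members (32.6%) in CC, against 18.9% of all genes. These counts moved with single libraries. In CB the count was 5 without WT CB library 1 or 2 and 11 without WT CB library 3. In CC it was 10 without WT CC library 1, 18 without library 2 and 13 without library 3. Fits without a HOMO library leave 1 library in a group, so their counts are not given here. Nor are the shares of all genes at this threshold in these fits. The moves therefore cannot be called particular to the members. The median log2 change of the members was -0.04 in CB, against -0.04 for all genes, and -0.25 in CC, against -0.03 for all genes. Leaving out 1 library moved the member median in CB to between -0.11 (without WT CB library 1) and 0.04 (without WT CB library 3), and in CC to between -0.34 (without WT CC library 2) and -0.14 (without WT CC library 3), and in CC it was -0.17 without WT CC library 1. It was positive for 18 of 43 members in CB and for 15 of 43 in CC. In bulk samples, fewer cells of a type and less RNA per cell cannot be told apart.

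Without an adjusted call, the members are described by whether both HOMO libraries lay outside all 3 WT libraries. In CB, 9 members (20.9%) were higher in both HOMO libraries, against 18.8% of all genes, and 10 (23.3%) were lower, against 16.4% of all genes. In CC, 5 members (11.6%) were higher, against 17.7% of all genes, and 10 (23.3%) were lower, against 17.4% of all genes. In both fractions, 5 members lay higher in HOMO (11.6%, against 9.30% of all genes) and 6 lay lower (14.0%, against 7.91% of all genes). The higher members were Samd9l, Dtx3l, Parp9, Parp14 and Trim30a, and the lower were Adar, Stat2, Irf1, Zbp1, Xaf1 and Eif2ak2. They were singled out after their values were seen.

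Samd9l (ENSMUSG00000047735.14, mm10 chromosome 6, 3372257 to 3399572) had 146 and 156.6 CPM in HOMO CC libraries 2 and 3, against 90.3, 74.7 and 118.4 CPM in libraries 1, 2 and 3 of WT CC. It had 178.2 and 167.9 CPM in HOMO CB, against 131.4, 126.3 and 127.2 CPM in WT CB. The groups did not overlap in either fraction, and within WT CC library 3 lay nearest to HOMO. The log2 change was 0.68 ± 0.15 (SE; edgeR, adjusted p = 0.104) in CC and 0.43 ± 0.15 (SE; edgeR, adjusted p = 0.325) in CB. With an offset for GC content it was 0.39 in CC and 0.10 in CB. Its longest transcript has a GC content of 38.8%.

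Parp9, Dtx3l and Parp14 sit together on mm10 chromosome 16 between 35832874 and 35972605. Parp9 had 79.7 and 74.7 CPM in HOMO CC, against 56.7, 49.6 and 65.6 CPM in WT CC, and 81.3 and 77.1 CPM in HOMO CB, against 72.5, 67.1 and 61.0 CPM in WT CB. Dtx3l had 104.5 and 102.1 CPM in HOMO CC, against 81.5, 71.5 and 90.6 CPM in WT CC, and 124 and 116.7 CPM in HOMO CB, against 103.5, 97.7 and 87.7 CPM in WT CB. Parp14 had 174.2 and 185.8 CPM in HOMO CC, against 145.6, 124.1 and 161.9 CPM in WT CC, and 185.1 and 191.4 CPM in HOMO CB, against 151, 149 and 163.8 CPM in WT CB. All 3 neighbours lay higher in HOMO with no overlap, in both fractions. Their log2 changes in CC were 0.43 ± 0.13 (SE) for Parp9, 0.35 ± 0.12 (SE) for Dtx3l and 0.32 ± 0.12 (SE) for Parp14. In CB they were 0.25 ± 0.12 (SE), 0.32 ± 0.12 (SE) and 0.28 ± 0.11 (SE), and the edgeR adjusted p of these 6 values lay between 0.142 and 0.441. Trim30a, whose product restrains Toll-like receptor signalling in mice, had log2 changes of 0.34 ± 0.16 (SE) in CC and 0.31 ± 0.16 (SE) in CB. With the GC offset these were 0.11 and 0.08, while the 3 chromosome 16 genes kept values of 0.24 to 0.39.

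Xaf1, which encodes an inhibitor of the caspase inhibitor XIAP, had the lowest log2 change of the genes lying lower in both fractions. It had 2.08 and 3.04 CPM in HOMO CC, against 4.19, 5.54 and 4.77 CPM in WT CC, and 1.83 and 2.37 CPM in HOMO CB, against 4.10, 3.44 and 3.80 CPM in WT CB. The log2 change was -0.93 ± 0.29 (SE; edgeR, adjusted p = 0.158) in CC and -0.84 ± 0.28 (SE; edgeR, adjusted p = 0.307) in CB, and -0.97 and -0.85 with the GC offset. Irf1 had 44.5 and 48.1 CPM in HOMO CC, against 60.3, 56.7 and 85.7 CPM in WT CC, and 31.7 and 35.6 CPM in HOMO CB, against 38.2, 40.2 and 61.8 CPM in WT CB. The HOMO libraries were lowest, and WT library 3 was the highest in each fraction. Irf1 had log2 changes of -0.54 ± 0.23 (SE) in CC and -0.48 ± 0.22 (SE) in CB, with edgeR adjusted p of 0.232 in CC and 0.409 in CB. They were -0.44 in CC and -0.37 in CB with the GC offset, -0.33 in CC without WT CC library 3 and -0.22 in CB without WT CB library 3, and -0.20 in CC and -0.01 in CB with the GC offset and without WT number 3. Stat2 had 101.8 and 103.9 CPM in HOMO CC, against 127.4, 129.4 and 110.8 CPM in WT CC, and 87.5 and 89.6 CPM in HOMO CB, against 105.4, 114.1 and 93.6 CPM in WT CB. Its log2 changes of -0.25 and -0.24 (SE 0.11 each) became -0.17 and -0.12 with the GC offset. Adar had 155.4 and 155 CPM in HOMO CC, against 190.3, 189.2 and 185.4 CPM in WT CC, for a log2 change in CC of -0.28 ± 0.09 (SE; edgeR, adjusted p = 0.166), or -0.15 with the GC offset.

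The HOMO against WT counts turned on WT number 3. Without both WT libraries of that number, 11 of 43 members (25.6%) were called in CC, where 31.3% of all genes were called, and 8 of 43 (18.6%) in CB, where 30.4% of all genes were called. The members' shares lay below those of all genes. Without WT CC library 3 alone 4 members (9.3%) were called in CC, where 14.8% of all genes were called, and without WT CB library 3 alone 1 member (2.33%) was called in CB, where 12.1% of all genes were called. Called in CC without both were Ddx58, Dtx3l, Parp14, Parp9, Samd9l and Trim30a, which were higher in HOMO, and Adar, Iigp1, Irf1, Stat2 and Xaf1, which were lower. Called in CB were Dtx3l, Parp14, Samd9l and Trim30a, higher in HOMO, and Adar, Isg20, Stat2 and Zbp1, lower in HOMO. With the GC offset as well, 9 members were called in CC (22.4% of all genes) and 3 in CB (16.5% of all genes). Dtx3l and Parp14 were the only members called higher in both fractions there, and Eif2ak2 was the only member called lower in both. In the main fit the log2 changes of Eif2ak2 were -0.18 ± 0.11 (SE) in CC and -0.16 ± 0.10 (SE) in CB. Without WT number 3, WT CC keeps libraries 1 and 2, whose macrophage sums were 1078 and 273.1 CPM, against 27.5 and 34.5 CPM in HOMO CC. Iigp1 had 0.421 CPM in the left-out WT CC library 3, against 0.488 and 0.190 CPM in HOMO CC. The part of GC content in the differences between genotypes was not tested beyond these values, and the part of macrophage RNA was not tested.

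**Figure D2:**
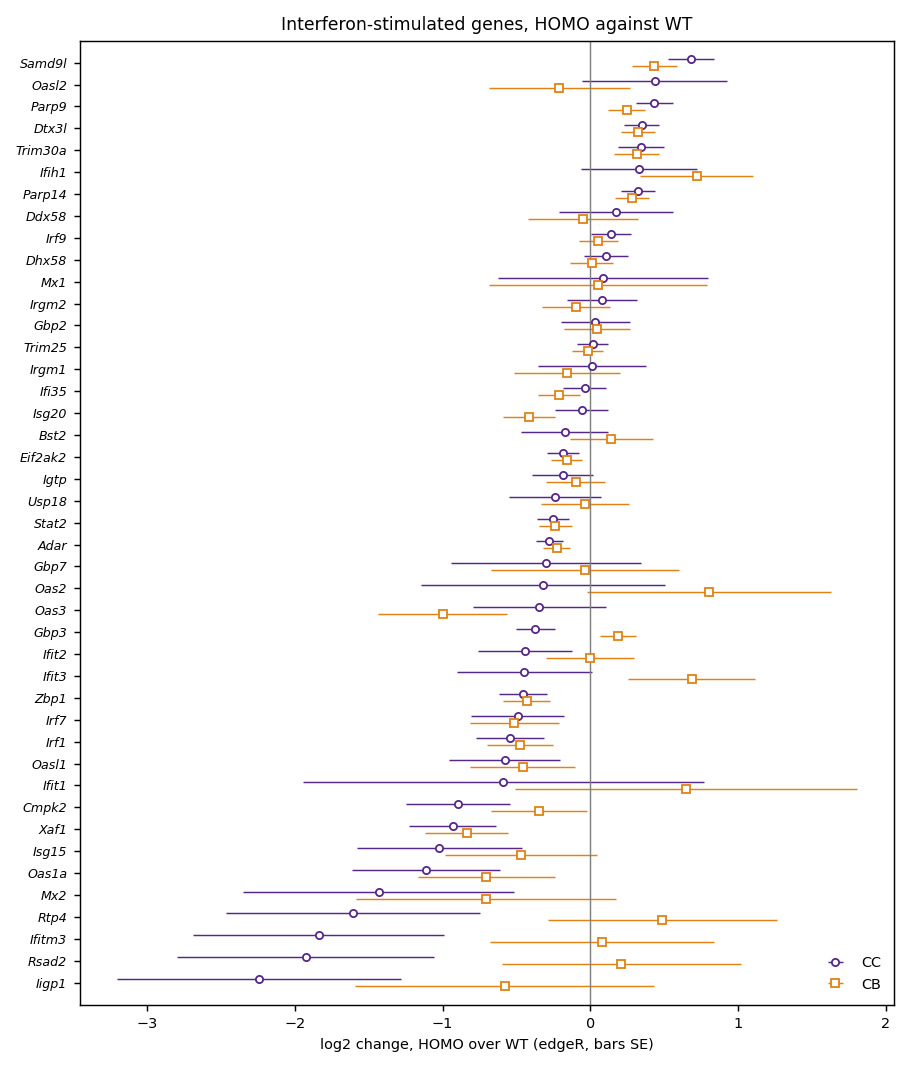
Log2 change of HOMO over WT for the 43 tested members, in CC (circles) and in CB (squares), from edgeR, with bars for the SE. No value passed an adjusted p of 0.05. Samd9l was highest in CC at 0.68 and Iigp1 lowest in CC at -2.24. Iigp1 had 8 and 2 reads in HOMO CC, against 87, 19 and 6 reads in WT CC libraries 1, 2 and 3, and these groups overlapped in CPM.

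Between fractions of WT mice, 9 of 43 members passed. For CC against CB in WT, 20.9% of the members were called, against 23.9% of all genes. In detail, 7 members (16.3%) rose, against 11.6% of all genes, and 2 members (4.65%) fell, against 12.3% of all genes. The risers were Iigp1 and Gbp7 among the GTPases and Rsad2, Oas2, Mx1, Ifit3 and Adar among the antiviral effectors, and the members that fell were Samd9l and Trim25. The median log2 change of the members was 0.23, against 0.01 for all genes, and 30 of 43 values were positive. No sensor and no transcription factor passed. All risers except Adar averaged under 3 CPM in every group, so their values rest on few reads.

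Iigp1, which encodes a GTPase that loads onto the vacuoles of parasites such as Toxoplasma, had 3.57, 0.984 and 0.421 CPM in libraries 1, 2 and 3 of WT CC, against 0.0788, 0.0687 and 0.218 CPM in WT CB. These were 87, 19 and 6 reads, against 2, 2 and 14 reads. The fractions did not overlap, and the WT CC libraries ran in the same order as their macrophage sums. The log2 change was 3.62 ± 0.84 (SE; edgeR, adjusted p = 0.0106). Rsad2, which encodes viperin, had 2.67, 0.673 and 1.05 CPM in WT CC, against 0.276, 0.0687 and 0.405 CPM in WT CB, again without overlap and highest in WT CC library 1. Its log2 change was 2.49 ± 0.72 (SE; edgeR, adjusted p = 0.0288). Gbp7, a guanylate-binding protein gene, had 1.85, 1.19 and 2.11 CPM in WT CC, against 0.158, 0.275 and 0.841 CPM in WT CB, a log2 difference of 1.92 ± 0.58 (SE; edgeR, adjusted p = 0.0329). All 3 WT CC libraries lay above all 3 WT CB libraries.

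Oas2 had 3.57, 0.414 and 2.81 CPM in libraries 1, 2 and 3 of WT CC, against 0.355, 0.103 and 0.747 CPM in WT CB. Mx1, an antiviral GTPase gene known to be defective in C57BL/6 and most other inbred strains, had 3.08, 0.621 and 2.25 CPM in WT CC, against 0.236, 0.275 and 0.825 CPM in WT CB. Ifit3 had 3.62, 1.19 and 2.67 CPM in WT CC, against 0.946, 0.996 and 1.26 CPM in WT CB. In all 3 genes WT CC library 2 was low enough to lie below WT CB library 3, so the fractions overlapped. The log2 changes were 2.41 ± 0.77 (SE; edgeR, adjusted p = 0.0418) for Oas2, 2.08 ± 0.66 (SE; edgeR, adjusted p = 0.0420) for Mx1 and 1.21 ± 0.40 (SE; edgeR, adjusted p = 0.0464) for Ifit3. Adar rose by less, to 190.3, 189.2 and 185.4 CPM in WT CC, against 166.8, 163.9 and 146.7 CPM in WT CB, a log2 difference of 0.24 ± 0.08 (SE; edgeR, adjusted p = 0.0495).

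Trim25, whose product activates RIG-I signalling, fell to 88.2, 86.6 and 100 CPM in WT CC, against 125, 112.4 and 111 CPM in WT CB, with no overlap (log2 change -0.34 ± 0.09 SE; edgeR, adjusted p = 0.0218). Samd9l fell to 90.3, 74.7 and 118.4 CPM in WT CC, against 131.4, 126.3 and 127.2 CPM in WT CB. Its log2 change was -0.44 ± 0.14 (SE; edgeR, adjusted p = 0.0383), and WT CC library 3 lay close to the CB libraries. Irf1 (0.53, SE 0.20, edgeR adjusted p = 0.0777) and Ifih1 (1.04, SE 0.35, edgeR adjusted p = 0.0528) had the smallest p among the factors and sensors and did not pass. With the WT number as a replicate block, 13 members were called, the 9 above and Irf1, Ifih1, Irgm1 and Stat2, all higher in CC. The 13 were 30.2% of the members, against 35.4% of all genes.

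**Figure D3:**
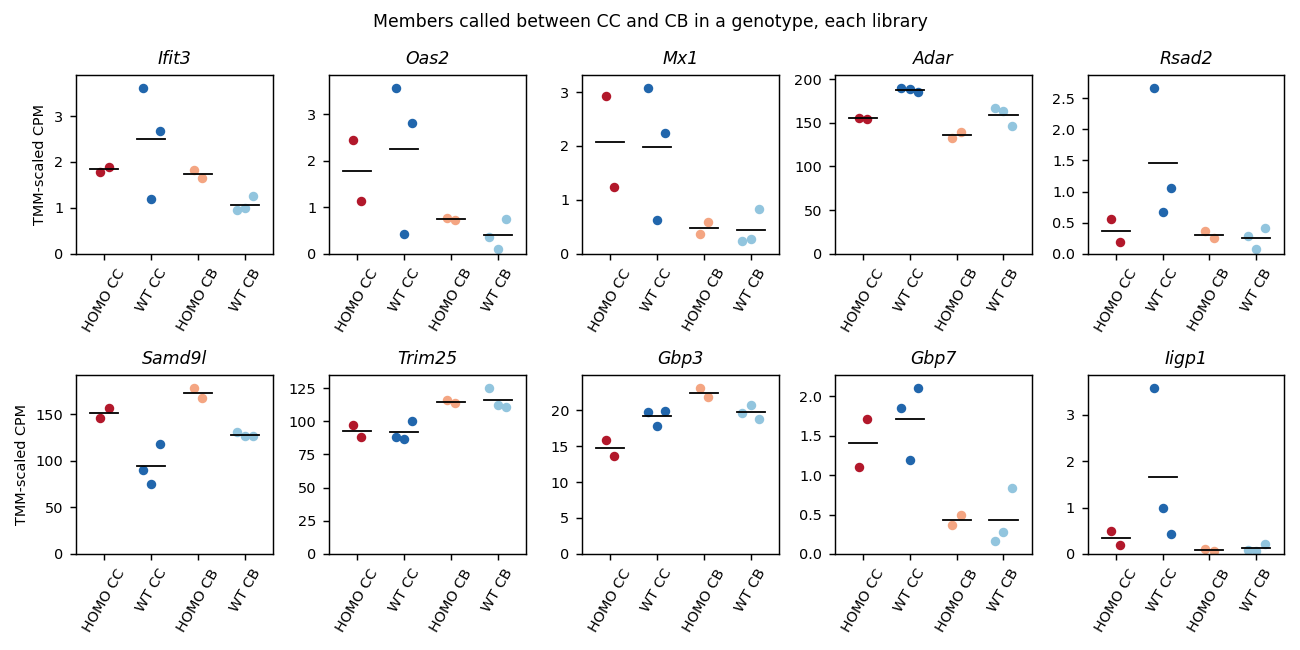
TMM-scaled CPM of the 10 members called between CC and CB in either genotype, with a point for each library, a line for the group mean and axes that start at 0. Groups run from left to right as HOMO CC, WT CC, HOMO CB and WT CB; Iigp1 and Rsad2 reached 3.57 and 2.67 CPM in WT CC library 1 and at most 0.984 and 1.05 CPM in the other libraries.

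The number of calls between WT fractions depended on which libraries were in the fit. Without WT CC library 1, 0 of 43 members were called, while 15.2% of all genes were called. The count was 1 without WT CB library 1 (12.7% of all genes) and 2 without WT CB library 2 (14.7% of all genes). It was 3 without HOMO CB library 2 or 3 (17.6% of all genes in each), 3 without HOMO CC library 2 (19.5% of all genes) and 4 without HOMO CC library 3 (18.9% of all genes). In the fits without a HOMO library 44 members passed the filter on low counts, and the HOMO libraries enter the estimate of the spread. The count stayed at 9 or more without WT CB library 3, WT CC library 2 or WT CC library 3. In those fits 15.2%, 7.56% and 15.9% of all genes rose and 16.8%, 7.71% and 16.6% fell. Without WT CC libraries 1 and 2, which had the highest macrophage sums, 1 member was called, Irgm1, a regulator of the immunity-related GTPases, and 4.96% of all genes were called. That fit leaves WT CC with library 3 alone, which is assumed to vary like the other groups. Irgm1 had 8.54, 6.52 and 17.0 CPM in libraries 1, 2 and 3 of WT CC, against 5.04, 5.39 and 7.88 CPM in WT CB. With only WT libraries in the fit, 1 member passed (Iigp1), and 15.6% of all genes. Without WT number 3 the count was 17 of 43, where 46% of all genes were called.

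Macrophage markers moved with some of these values. In WT CC the C1q genes, Csf1r, Axl and Mertk ran in the order of libraries 1, 2 and 3, while Cd68, with 12.45, 7.97 and 11.23 CPM, did not. The sum of all 13 macrophage markers ran from library 1 over 2 to 3, at 1078, 273.1 and 60.1 CPM. Of the 43 members, 4 (Adar, Bst2, Ifi35 and Iigp1, 9.30%) had the same order, against 20.7% of all genes. WT CC library 1 was the highest of its group for 19 members (44.2%), against 31.8% of all genes. These included Iigp1, Rsad2, Oas2, Mx1, Mx2, Ifit3, Ifitm3, Rtp4 and Isg15. Ifitm3, which blocks the entry of viruses, had 3.90, 0.880 and 1.33 CPM in WT CC, and Rtp4 had 2.75, 0.259 and 1.40 CPM. In HOMO CC, where the macrophage sums were 27.5 and 34.5 CPM, Iigp1 had 0.488 and 0.190 CPM, against 0.110 and 0.0731 CPM in HOMO CB. These were 8 and 2 reads, against 3 and 5 reads. The log2 change of Iigp1 in HOMO was 1.96 ± 1.14 (SE; edgeR, adjusted p = 0.399). Rsad2 had 0.549 and 0.190 CPM in HOMO CC, against 0.366 and 0.249 CPM in HOMO CB. Mx1 reached 2.93 and 1.23 CPM, Oas2 2.44 and 1.14 CPM and Gbp7 1.1 and 1.71 CPM in HOMO CC. The part of macrophage RNA in the members' differences was not tested.

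WT CC library 2 was the lowest of its group for 35 of 43 members (81.4%), against 30.7% of all genes. The median difference of the members from the mean of the other 2 libraries was -0.47 on the log2 scale, against 0.00 for all genes. The corresponding member medians were 0.12 for WT CC library 1 and 0.27 for WT CC library 3. The library was low for sensors (Ddx58 with 4.61 CPM, against 8.17 and 15.3 CPM in libraries 1 and 3), effectors (Oasl2 with 1.09 CPM, against 2.67 and 3.30 CPM) and ligases (Trim30a with 38.5 CPM, against 55.9 and 57.1 CPM) alike. WT CC library 3 was highest for 21 members (48.8%), against 39.5% of all genes, and WT CB library 3 was highest of its group for 21 members (48.8%), against 41.1% of all genes. In both fractions library 3 was highest for 11 members (25.6%), against 22.9% of all genes, among them Irf1, Irf7, Irf9 and Irgm1. WT CB library 2 had a member median of -0.16, and the HOMO libraries lay between -0.03 and 0.03. These patterns by library were chosen after the values were seen.

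**Figure D4:**
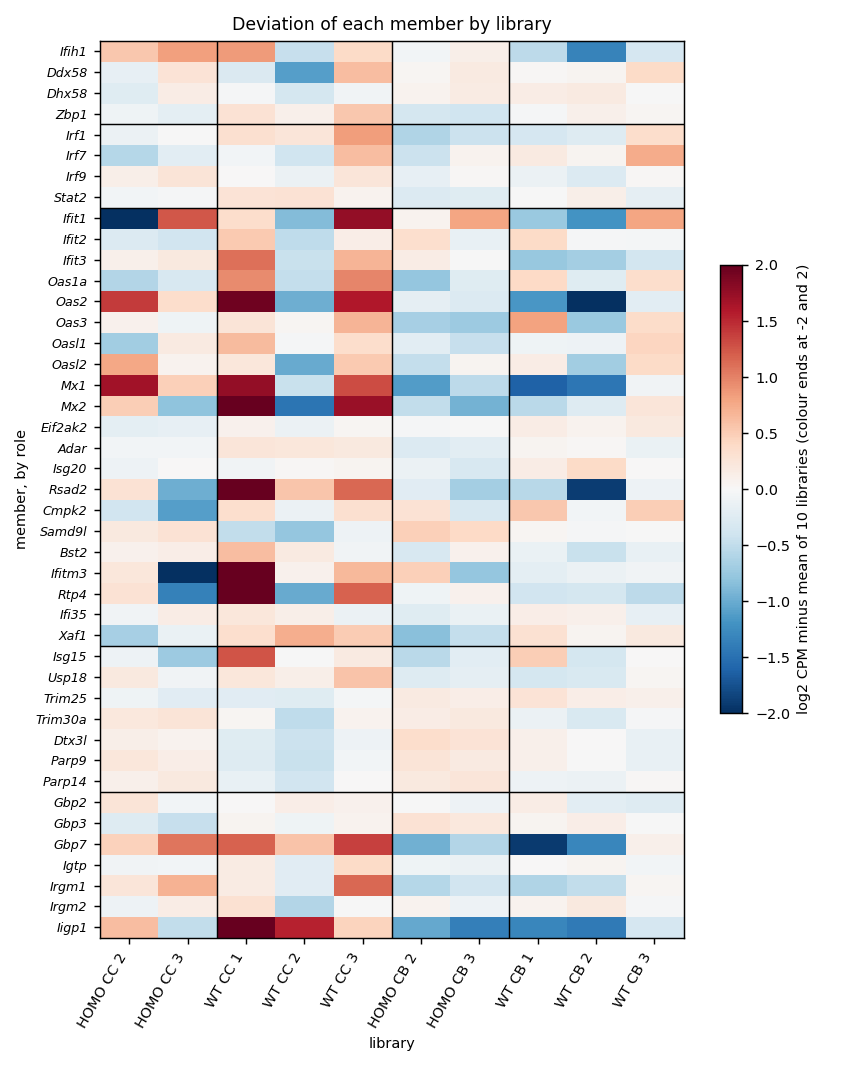
Log2 CPM of each of the 43 tested members minus its mean over the 10 libraries, with members in rows by role and libraries in columns (HOMO CC, WT CC, HOMO CB, WT CB); the colours end at -2 and 2. WT CC library 2 is lower than both other WT CC libraries for 35 of 43 members.

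In HOMO mice, 1 of 43 members passed between fractions. For CC against CB in HOMO, 2.33% of the members were called, against 5.45% of all genes. None rose, where 2.46% of all genes rose, and the 1 member that fell (2.33%) stood against 2.98% of all genes. It was Gbp3 (ENSMUSG00000028268.14, mm10 chromosome 3, 142560026 to 142573209), a guanylate-binding protein gene. Gbp3 had 15.9 and 13.7 CPM in HOMO CC, against 23.1 and 21.8 CPM in HOMO CB, a log2 difference of -0.60 ± 0.14 (SE; edgeR, adjusted p = 0.0319). In WT its libraries overlapped, at 19.8, 17.9 and 19.9 CPM in CC and 19.6, 20.7 and 18.8 CPM in CB. The call was lost without any 1 of the 4 HOMO libraries or without WT CB library 1. With the WT number as a replicate block, 3 members were called in HOMO, Gbp3 lower in CC and Irf1 and Irgm1 higher (6.98%, against 13.8% of all genes). The median log2 change of the members was 0.13, against -0.01 for all genes, and 27 of 43 values were positive.

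The members that passed in WT had the same sign in HOMO but did not pass there. The log2 change of Mx1 in HOMO was 2.11 ± 0.81 (SE; edgeR, adjusted p = 0.177), close to its value in WT, and Gbp7 had 1.66 ± 0.72 (SE), with no overlap between HOMO CC and HOMO CB for either. Trim25 had -0.31 ± 0.12 (SE), at 97.3 and 87.9 CPM in HOMO CC, against 116.2 and 113.4 CPM in HOMO CB. Rsad2 had 0.35 ± 0.94 (SE) and Ifit3 0.08 ± 0.49 (SE). With only the HOMO libraries in the fit, 12 members were called, where 30.4% of all genes were called, and without WT number 3 there were 8, where 23% of all genes were called. The difference between genotypes in the change between fractions was tested as an interaction, and 0 of 43 members passed, where 0% of all genes passed. At an unadjusted p under 0.05 there was 1 member (2.33%), Gbp3, against 2.62% of all genes, and by DESeq2 and limma-voom the adjusted count was also 0. An effect called in WT and not in HOMO is therefore not shown to differ between the genotypes.

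**Figure D5:**
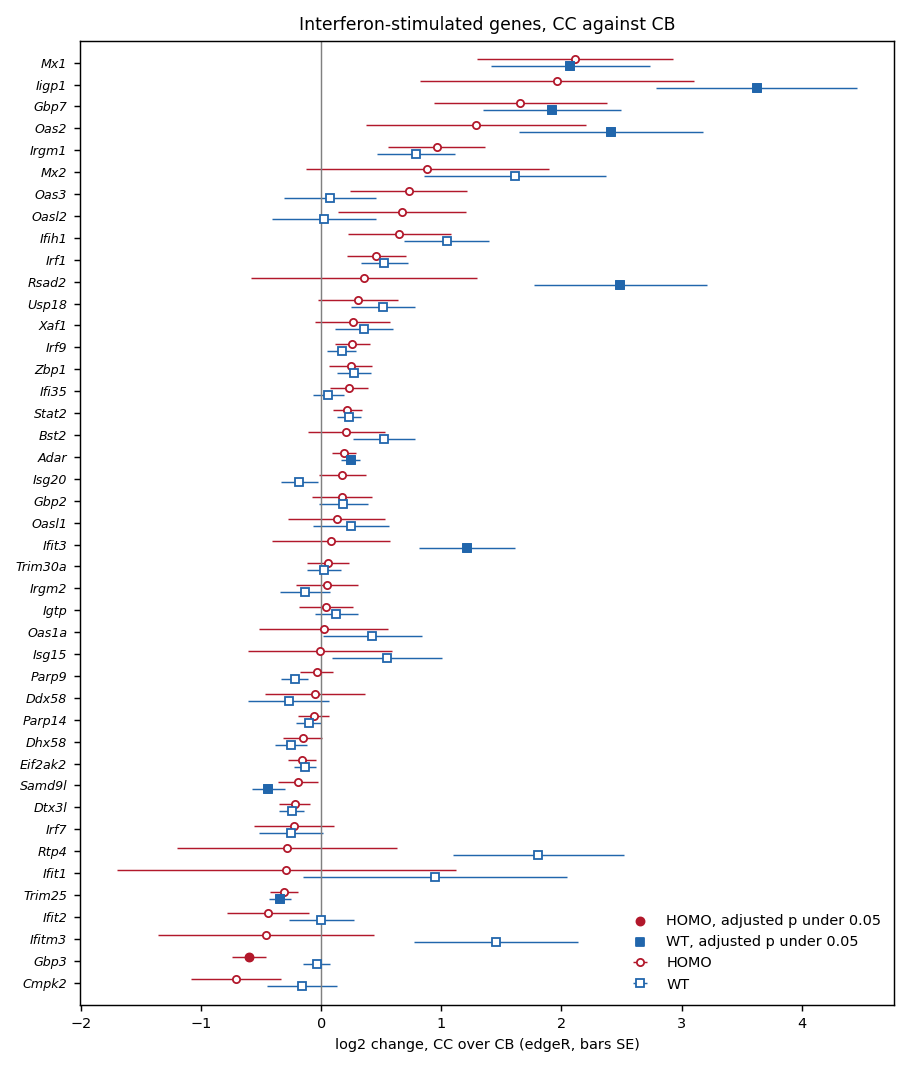
Log2 change of CC over CB for the 43 tested members, in HOMO (circles) and in WT (squares), from edgeR, with bars for the SE and filled symbols for an adjusted p under 0.05. The 9 filled WT values run from -0.44 for Samd9l to 3.62 for Iigp1, and the filled HOMO value is Gbp3 at -0.60.

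Interferon genes themselves were at or near 0. Of 11 ligand genes, Ifnb1, Ifna1, Ifna2, Ifna4, Ifna5, Ifne, Ifnl2 and Ifnl3 had 0 reads in all 10 libraries, which allows up to 0.0439 to 0.285 CPM by library. Ifng had 0.183 CPM in HOMO CC library 2 and 0.0702 CPM in WT CC library 3, and 0 elsewhere. Ifnk, an interferon gene of keratinocytes, had 0.285 CPM in HOMO CC library 3, 0.246 CPM in WT CC library 1 and at most 0.0878 CPM in the other libraries, and Ifnz had 0.0411 CPM in WT CC library 1 and 0 elsewhere. The floor of 3 counts covers counting error only. The receptors were present. Ifnar1, a subunit of the type I receptor, had 63.3 and 56.1 CPM in HOMO CC, against 54.5, 49.7 and 65.3 CPM in WT CC, and 48.3 and 45.5 CPM in HOMO CB, against 51.8, 46.0 and 50.7 CPM in WT CB.

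Of 119 further genes of the pathway, listed beside the members and also with earlier results of these data known, 98 passed the filter. For HOMO against WT none of them passed in CB or in CC, and the smallest edgeR adjusted p was 0.183 in CB and 0.103 in CC. For CC against CB in WT, 31 rose and 6 fell, where 11.6% of all genes rose and 12.3% fell, with a median log2 change of 0.38 over the 98 genes. In HOMO 9 rose and 1 fell, where 2.46% of all genes rose and 2.98% fell, with a median of 0.32. Without WT CB library 1 the risers in WT numbered 19 (5.91% of all genes), and without WT CC libraries 1 and 2 they numbered 17 (2.44% of all genes). In HOMO 8 rose without WT CB library 1 (1.79% of all genes). Without WT CB library 3 it was 16 (4.22% of all genes) and without WT CC library 3 it was 20 (4.87% of all genes). Leaving out 1 of the 4 HOMO libraries leaves 1 library in a group. The risers of those fits are therefore not counted here, and whether the HOMO count holds without a HOMO library is not shown. The median log2 change in HOMO was then 0.273 to 0.355. With the WT number as a replicate block, 44 rose in WT (16.9% of all genes) and 29 in HOMO (6.3% of all genes). Of the 31 risers in WT, 7 (22.6%) ran in WT CC in the order of the macrophage sums, against 20.7% of all genes, among them Gbp8 with 19.96, 7.87 and 5.34 CPM, Lgals3bp with 13.2, 4.97 and 3.51 CPM and Ifi204 with 4.27, 0.621 and 0.351 CPM in libraries 1, 2 and 3. The part of macrophage RNA in these values was not tested. By role, 3 of 6 receptor genes rose in WT and 1 in HOMO. Of 14 genes of upstream sensing, 5 rose and 1 fell in WT and 1 rose in HOMO. Of 10 genes of signal transduction and its inhibitors, 3 rose and 1 fell in WT and none passed in HOMO. Ifngr2, a subunit of the interferon gamma receptor, had 34.1 and 30.1 CPM in HOMO CC, against 18.1 to 19.8 CPM in HOMO CB, and 35.0 to 39.2 CPM in WT CC, against 18.7 to 22.2 CPM in WT CB. Its log2 change in HOMO was 0.77 ± 0.14 (SE; edgeR, adjusted p = 0.00772) and in WT it was 0.85 ± 0.11 (SE; edgeR, adjusted p = 0.000466). Ikbke, a kinase gene upstream of interferon induction, rose on the log2 scale by 1.93 ± 0.18 in HOMO (SE; edgeR, adjusted p = 0.000422) and in WT by 1.88 ± 0.15 (SE; edgeR, adjusted p = 2.77e-05). Slfn2, a schlafen gene, rose by 1.00 in HOMO and 1.19 in WT, and Gbp4, a relative of Gbp3 and Gbp7, rose by 0.66 in HOMO and 0.53 in WT. Ifit1bl1, a relative of Ifit1, fell to 5.31 and 3.80 CPM in HOMO CC, against 18.3 and 16.3 CPM in HOMO CB, and to 3.98, 4.40 and 6.67 CPM in WT CC, against 33.6, 27.4 and 22.0 CPM in WT CB.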

How the data were processed

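The authors deposited raw counts of reads, in whole numbers, and a length for each of 55421 genes. FastQC, STAR, Subread, featureCounts, R 4.2.1 and mm10 are named in the submitters' processing notes. How strand and multiply matching reads were treated, and which annotation was counted, is not given in the sources used here. All 54673 identifiers found in GENCODE M21 had the coordinates given there. For 42 members the identifier matched with its version, for 2 without it. The members, roles and lists were chosen with earlier results of these data known.

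Of the 55421 genes, 16596 passed filterByExpr in edgeR 4.0.16, with 10 as the minimum count and 15 as the minimum in total, and TMM factors scaled the libraries. The robust quasi-likelihood fit in R 4.3.3 used 4 group means over all 10 libraries, and 5 contrasts were tested with Benjamini-Hochberg adjustment over all genes. The common coefficient of biological variation came to 23.1%. CPM and RPKM values are TMM-scaled. The steps were tested on simulated data. Alternatives used DESeq2 1.42.0, limma-voom (limma 3.58.1), other scalings and filters, left-out libraries and an offset for GC content. Named members are those that passed and the 2 most abundant of each role, beside those singled out after seeing values. Groups come from the sample titles. Because HOMO columns carry the numbers 2 and 3 but HOMO titles 1 and 2, these columns were assigned to a group only. The HOMO CB and CC columns share these numbers, and neutrophil sums were high in both libraries of number 2. No fit paired them, so the change between fractions in HOMO was tested unpaired throughout. Libraries within a group differed beyond sampling noise in every pair (chi-square per degree of freedom 4.14 to 80.7).

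As a check of pairing over 8805 genes, deviations of WT CB and CC libraries with the same number had r = 0.301, 0.426 and 0.436, and other combinations had -0.411 to 0.278. On this evidence from the data, with no label behind it, WT numbers were treated as pairs in the replicate block alternatives only. The main fit, with its adjusted p-values, was unpaired.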

Additional observations from a re-analysis of the deposited data

Results flagged for a closer look

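Gbp3 was the member for which genotypes lay apart in opposite directions in the 2 fractions. Both HOMO CC libraries (15.9 and 13.7 CPM) lay below all WT CC libraries (19.8, 17.9 and 19.9 CPM), while both HOMO CB libraries (23.1 and 21.8 CPM) lay above all WT CB libraries (19.6, 20.7 and 18.8 CPM). The interaction log2 change was -0.56 (SE 0.18, unadjusted p = 0.00977, edgeR adjusted p = 1 over all genes), so the difference failed the correction. Neighbouring Gbp genes may share reads, and how the authors' counting split them is not given in the sources used here.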

How the results depend on the processing

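Counts are of members called, out of 43 unless the filter changed it. Pairs of percentages in brackets are the shares of all genes called higher and lower in the same fit. Signs were followed for members called between fractions and for those lying apart between genotypes in the same direction in both fractions. None of them changed sign in those comparisons under any alternative run. For HOMO against WT the count of 0 was kept by most alternatives. In CC it was 3 by DESeq2 and 3 with no low-count filter (2.12% and 2.36%). It was 11 without both libraries of WT number 3 (16.5% and 14.8%). With the GC offset added to that, an alternative chosen after seeing the data, it was 9 (10.2% and 12.1%). In CB it was 2 with no low-count filter (1.17% and 0.84%) and 8 without WT number 3 (15.3% and 15.1%). There it was 3 with the GC offset added (9.47% and 7.03%). Leaving out 1 library at a time gave 0 to 4 in CC and 0 to 1 in CB.

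For CC against CB in WT the 9 members became 4 with library sizes only (10.3% and 12.2%). With only the groups compared there was 1 (7.7% and 7.94%). Without WT numbers 1, 2 and 3 there were 0 (3.06% and 3.27%), 2 (3.81% and 3.82%) and 17 (22.2% and 23.9%). Without number 3 and with the GC offset there were 15 (25.9% and 19.3%). Without WT CC libraries 1 and 2 there was 1, and 1 with the GC offset added after seeing the data. Leaving out 1 library gave 0 to 11. For CC against CB in HOMO the 1 member became 0 with library sizes only (3.31% and 2.08%) and 0 by limma-voom (2.27% and 2.54%). With no low-count filter there were 2 (2.31% and 2.73%). With only the groups compared there were 12 (14.5% and 15.9%). Without WT numbers 1, 2 and 3 there were 0 (1.68% and 2.05%), 0 (2.01% and 2.46%) and 8 (10% and 13%). Without number 3 and with the GC offset there were 6 (10% and 9.95%). Without WT CC libraries 1 and 2 the GC offset gave 2, and leaving out 1 library gave 0 to 1. The interaction count was 1 without WT number 3 (5.04% and 3.94%) and 2 with the GC offset added (4.23% and 5.49%).

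With the WT number as a fixed replicate block, 13 members were called between fractions in WT and 3 in HOMO. As a random replicate block in limma-voom (correlation 0.307) it gave 12 in WT (16.1% and 17.5%), 0 in HOMO and 0 in the other contrasts. The fixed block was not used for HOMO against WT, since each number lies within 1 genotype, so that the block and the genotype cannot be told apart. It changed no other call of a count. Scaling by library sizes only moved the median of all genes for HOMO against WT in CC to 0.10, against -0.03 with TMM factors, and the median of the members there to -0.12, against -0.25. The causes were not tested. Members under 1 CPM rest on few reads, so a difference in them was not always detectable at this depth.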
